A study of Drosophila melanogaster with 9 samples.

Results

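Cultured *Drosophila* S2 cells in which the transcription factor gene *Myb* had been knocked down were compared with the same cells given a control double-stranded RNA (dsRNA). The comparison takes 6 RNA-Seq libraries of the 9 made from S2 cells, 3 of cells treated with Myb dsRNA and 3 of cells treated with GFP dsRNA. It covers the 9231 genes, of 17493 in the deposited count table, that passed a filter on expression. S2-DGRC is an immortal line derived from fly embryos, with blood-cell character. Myb dsRNA cells carry the label induced endoreplication and are called Myb dsRNA iECs (induced endoreplicating cells). GFP dsRNA has no target gene in the fly, and the cells given it are labelled mitotic and served as the control. The remaining 3 libraries came from cells treated with dsRNA against *CycA*, the Cyclin A gene, also labelled as induced endoreplication, and it is used here for a direct comparison of the 2 knockdowns. All cultures grew in M3+BPYE medium with 12% serum by the labels and were harvested 96 h after dsRNA was added. The paper's methods give a lower serum content for S2 cells than for iECs, so a difference in serum cannot be told apart from the knockdown if there was one. RNA came from whole cultures with no sorting of cells, and nothing in the labels gives the share of cells that had switched cycle.

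Myb binds DNA and acts as a subunit of the Myb-MuvB complex (MMB), which joins Myb to the MuvB proteins mip130, mip120, mip40, lin-52 and Caf1-55, and to an E2F factor with its partner Dp and a retinoblastoma protein. The complex sits at the promoters of many genes. At some, Myb is needed for transcription late in the cell cycle, when proteins of mitosis and cytokinesis are made. At others, the MuvB and E2F2 side of the complex keeps genes silent. In an endoreplication cycle a cell copies its genome again and again without dividing, so it still needs the machinery of S phase but not that of mitosis.

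The reagent was a dsRNA of 392 bases, which corresponds to 13.4% of the exon length of *Myb*. Its first 120 bases are shown because this sequence defines the knockdown. They are written 5′ to 3′ on the strand that has an open reading frame, in lower case throughout, since no single base is singled out.
Myb dsRNA: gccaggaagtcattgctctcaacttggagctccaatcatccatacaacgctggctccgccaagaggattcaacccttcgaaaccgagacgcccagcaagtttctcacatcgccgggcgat
The first frame of this strand ran through all 392 bases with 0 stop codons, while each of the 3 frames of the other strand held between 2 and 6. No stretch of 19 bases was shared with any of the 3 other dsRNAs listed by the study. Matches elsewhere in the fly genome were not searched here.

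*Myb* (FBgn0002914) lies on chromosome X, 15854832 to 15857823 on the minus strand of the Release 6 genome. It was at 13.3, 15.1 and 12.8 CPM (counts scaled to the size of each library with TMM factors) in the 3 Myb dsRNA libraries, against 224, 203 and 219 CPM in the 3 GFP dsRNA libraries. The groups were far apart, with means of 13.7 ± 1.25 and 215 ± 10.8 CPM (SD, n = 3 each). The log2 fold change (log2FC) was -3.98 (standard error 0.0624, adjusted p = 4.2e-15, by the quasi-likelihood test of edgeR), so that 0.0634 of the control level remained. The gene overlaps *CG15914* on the opposite strand and *CG46440* on its own strand, and reads of the 3 cannot be fully separated. *CycA*, which was not the target, had 262, 257 and 261 CPM in Myb dsRNA iECs, against 186, 181 and 185 CPM in GFP dsRNA control cells. Its log2FC of 0.50 (adjusted p = 0.0064) fell just short of the size required for a call.

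The partners of Myb in the complex were not lost with it. *E2f2*, the gene of the repressive E2F factor, was the other gene of the complex that fell, with 45.7, 44.3 and 43.2 CPM in Myb dsRNA iECs and 72.4, 73.5 and 69.9 CPM in control cells. Its log2FC was -0.70 (standard error 0.0456, adjusted p = 1.8e-08). The other 8 genes were not called. Of these *Dp* had the largest difference, with 296, 306 and 297 CPM in Myb dsRNA iECs against 228, 212 and 220 CPM in control cells (log2FC 0.44). The MuvB core genes had log2FCs of 0.42 for *Caf1-55*, 0.41 for *lin-52*, 0.20 for *mip120*, 0.18 for *mip130* and -0.19 for *mip40*. The retinoblastoma family genes *Rbf* and *Rbf2* had 0.26 and 0.27. The differences of all 8 were smaller than the threshold on the fold change. Such small changes were common. Under that threshold, 1267 genes were higher and 2057 lower with an adjusted p under 0.05.

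**Figure D1:**
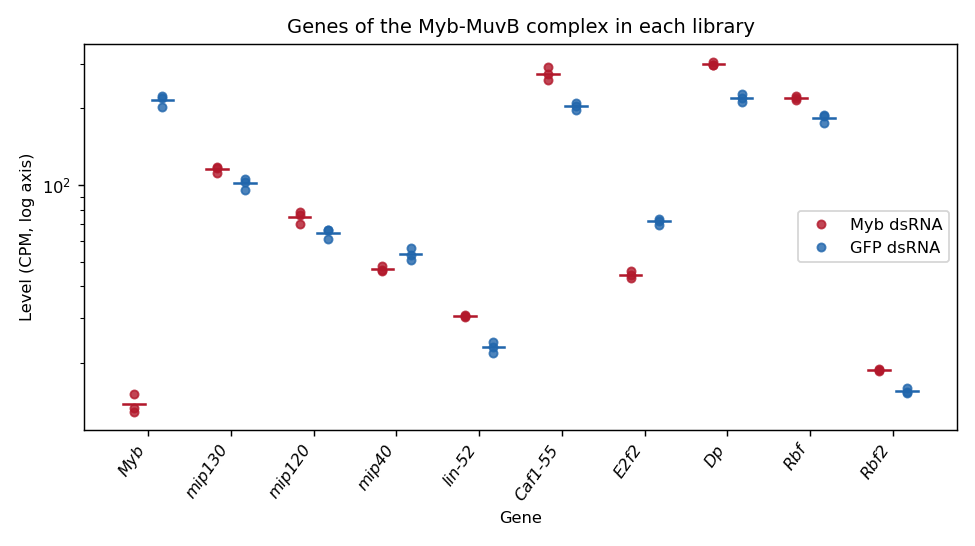
Level of each gene of the Myb-MuvB complex in each library, in CPM on a log axis, with Myb dsRNA (red) left of GFP dsRNA (blue); points are libraries and bars are means of 3. *Myb* stands at 12.8 to 15.1 CPM in Myb dsRNA iECs, against 203 to 224 CPM in control cells, while *E2f2* is lower and the other genes are within a log2FC of 0.44.

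A gene was called with a log2FC of at least 0.5 in size, the threshold of the study, and an adjusted p under 0.05. By this rule 1379 genes were higher in Myb dsRNA iECs and 626 lower, which is 14.9% and 6.78% of the genes tested. A further 1267 genes were higher and 2057 lower with an adjusted p under 0.05 and a smaller change. The rises were the larger changes. Of the genes called, 834 rose and 140 fell by at least 1 on the log2 scale, 296 rose and 8 fell by at least 2, and 112 rose and 1, *Myb* itself, fell by at least 3. The median log2FC was 1.22 among the genes called higher and -0.71 among those called lower, beside 0.01 over all genes tested. The 3 libraries of each group did not overlap for 1343 of the genes called higher and 618 of those called lower. These genes had already been picked by adjusted p, so this separation is no further support for the calls.

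Rises and falls took place at different levels of expression. Genes that rose had a median of 1.38 CPM in Myb dsRNA iECs and of 0.492 CPM in control cells, whereas genes that fell had medians of 13.6 and 24.3 CPM. Genes not called had medians of 42.5 CPM in Myb dsRNA iECs and 43.8 CPM in control cells. Split by the mean over all 6 libraries, 37.5% of the 3059 tested genes under 10 CPM were called higher, and 3.8% of the 6172 genes at 10 CPM or more. Of the genes tested, 529 were under the filter's threshold of 0.257 CPM in every control library, so that they entered the test through the Myb dsRNA or CycA dsRNA libraries. Of these 529, 383 were called higher and 0 lower. Such genes passed through a group in which they were high, so the share called among low genes is raised by the filter. The number of genes with at least 1 count does not depend on the filter. It was 12505, 12119 and 12476 in the Myb dsRNA libraries, against 11744, 11474 and 11496 in the GFP dsRNA libraries, although Myb dsRNA replicate 2 was the shallowest of the 6 with 29154513 counts. The other 5 held 35061391 to 44280452 counts. Even so, the genes called higher made up only 2.91% to 3.05% of the counts of tested genes in Myb dsRNA iECs, against 1.53% to 1.79% in control cells.

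**Figure D2:**
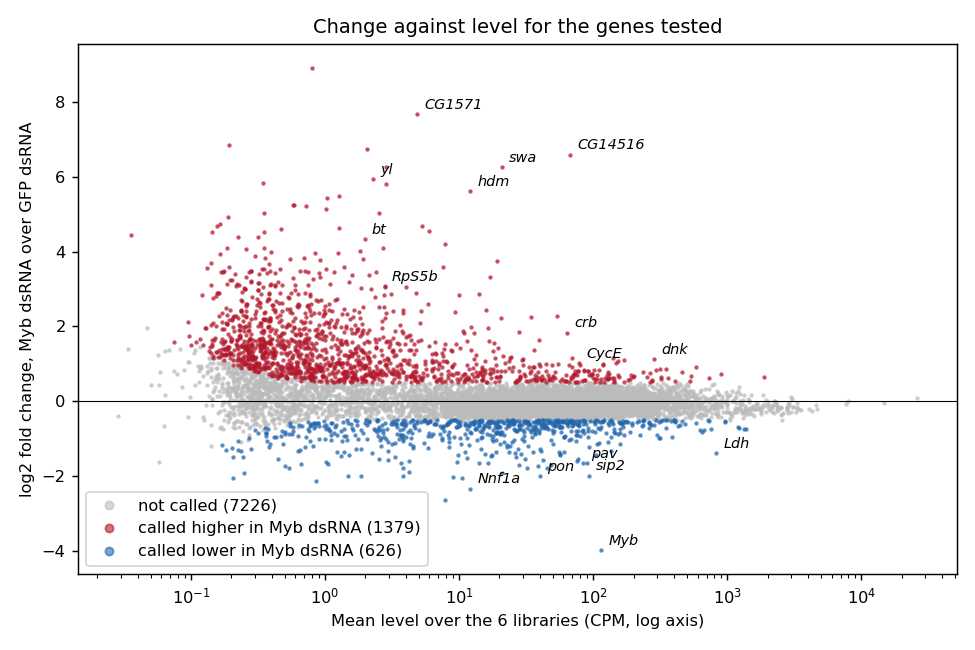
Log2FC of each of the 9231 genes tested, Myb dsRNA over GFP dsRNA, against its mean level over the 6 libraries in CPM on a log axis; red points were called higher, blue points lower and grey points were not called. Most of the 1379 rises lie at low levels, most of the 626 falls lie at higher levels, and *Myb* is the lowest point at -3.98.

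Genes of mitosis and cytokinesis fell as a broad group. Over 9 lists joined, which hold kinetochore, checkpoint, spindle, augmin, centriole, cytokinesis, chromosomal passenger, mitotic kinase and anaphase-promoting complex genes, 41 of 120 tested genes fell and 2 rose, with a median log2FC of -0.28. The 34.2% that fell stands beside 6.78% of all genes tested. In whole cultures, a change in the share of cells in mitosis and less mRNA in each cell cannot be told apart from these libraries. By microscopy, the paper reports slightly more mononucleate cells with mitotic phospho-histone H3 labelling after Myb knockdown, and this label was diffuse. The part of either in these falls was not tested. The 2 mitotic list members that rose were *twe*, which encodes a germline Cdc25 phosphatase (log2FC 0.58), and *CG5937* (log2FC 0.93), whose place in the checkpoint list is uncertain.

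Kinetochore genes included the largest fall of the 9 lists. *Nnf1a*, a subunit gene of the Mis12 kinetochore complex, had 4.02, 3.98 and 3.99 CPM in Myb dsRNA iECs and 19, 21.4 and 20.5 CPM in control cells (log2FC -2.34, standard error 0.0746, adjusted p = 1.2e-11). *cmet*, the gene of a CENP-E kinesin that moves chromosomes to the spindle equator, had 44.7, 43.1 and 41.7 CPM in Myb dsRNA iECs and 148, 112 and 147 CPM in control cells (log2FC -1.65), and its neighbour *cana*, a related kinesin gene, had a log2FC of -1.01. *Kmn1*, another gene of the microtubule-binding kinetochore network, fell to 5.21, 6.2 and 6.44 CPM in Myb dsRNA iECs, against 16.3, 17.4 and 17.6 CPM in control cells. *Spc25* and *Nuf2*, subunit genes of the Ndc80 complex, had log2FCs of -0.65 and -0.61. In all, 6 of 14 kinetochore genes fell and 0 rose, with a median of -0.41. Of the 14, 3 had a log2FC above 0.

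Among the genes of the spindle checkpoint, which holds back anaphase until chromosomes are attached, 3 of 11 fell. *Zwilch*, a subunit gene of the RZZ complex, had 16, 13.5 and 14 CPM in Myb dsRNA iECs and 33.0, 32.7 and 33.8 CPM in control cells (log2FC -1.19). The checkpoint kinase gene *Mps1* had a log2FC of -1.10 and *mad2*, the gene of the inhibitor that binds the Cdc20 activator, -0.67. All 3 pairs of groups were apart in every library.

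The augmin complex nucleates new microtubules from the sides of existing spindle microtubules, and its genes fell together. Of the 8 subunit genes, 6 were called lower and 0 higher, all 8 had a log2FC below 0 (-1.66 to -0.35), and the median was -0.69. *msd5* had 8.39, 7.64 and 7.56 CPM in Myb dsRNA iECs and 23, 26.4 and 25.6 CPM in control cells. *msd1* had 14.7, 14.7 and 13.9 CPM in Myb dsRNA iECs and 35.3, 39.7 and 38.3 CPM in control cells. *msd5* and *msd1* overlap on opposite strands of 3L, so their values are not fully separate. *dgt6* (log2FC -0.92) and *dgt3* (-0.76) had falls of a smaller size.

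Spindle motor and pole genes gave 6 falls and 0 rises among 18 tested, with a median of -0.25. *sip2*, the gene of a septin-interacting protein, had 37.4, 36.1 and 38.3 CPM in Myb dsRNA iECs and 152, 146 and 148 CPM in control cells (log2FC -1.99, standard error 0.045, adjusted p = 2.4e-13). *asp*, which encodes a protein that focuses spindle poles, had 31.6, 30.6 and 29.8 CPM in Myb dsRNA iECs and 83.7, 73.6 and 87.1 CPM in control cells. The kinesin genes *Klp67A*, *nod* and *Klp61F* had log2FCs of -1.14, -0.98 and -0.90. Among centriole genes 3 of 15 fell, led by *Poc1*, the gene of a centriole wall protein, with 21.4, 20.4 and 21.1 CPM in Myb dsRNA iECs and 63.1, 66.3 and 59.1 CPM in control cells. *SAK*, the kinase gene that starts centriole duplication, and *ana3* each had a log2FC of -0.55.

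The chromosomal passenger complex (CPC) is the Aurora B kinase with its scaffold Incenp and targeting subunits, and it acts at centromeres and then at the central spindle. *aurB* had 32.0, 31.9 and 32.2 CPM in Myb dsRNA iECs and 63.2, 67.7 and 64.9 CPM in control cells (log2FC -1.03, standard error 0.0437, adjusted p = 2e-10). *Det*, the survivin homolog, had 11.3, 12.3 and 12.1 CPM in Myb dsRNA iECs and 20.6, 24.4 and 21.5 CPM in control cells (log2FC -0.90). *Incenp* (log2FC -0.41, adjusted p = 2.1e-05) and *borr*, the borealin gene (log2FC -0.17, adjusted p = 0.022), were not called, so 2 of 4 subunit genes fell. Of 19 cytokinesis genes 7 fell and 0 rose. The centralspindlin genes *pav*, with 41.2, 42.4 and 38.6 CPM in Myb dsRNA iECs and 131, 121 and 133 CPM in control cells (log2FC -1.66), and *tum* (log2FC -0.82) were among them. *Klp3A*, the gene of a midzone kinesin, and *scra*, the anillin gene, had log2FCs of -0.67 and -0.63.

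Mitotic kinase and cyclin genes gave 6 falls and 1 rise among 15 tested, with a median of -0.27. *Cks30A*, the gene of a small partner of Cdk1, had 30.2, 31.7 and 29.5 CPM in Myb dsRNA iECs and 79.6, 83.5 and 82.4 CPM in control cells (log2FC -1.43). *aurA*, the kinase gene of centrosome maturation, had 23.3, 23.7 and 23.3 CPM in Myb dsRNA iECs and 55.8, 57.4 and 57.5 CPM in control cells. *polo* had 99.0, 102 and 95.8 CPM in Myb dsRNA iECs and 221, 215 and 213 CPM in control cells (log2FC -1.13). *CycB*, the gene of the main mitotic cyclin, had 137, 133 and 141 CPM in Myb dsRNA iECs and 240, 237 and 244 CPM in control cells (log2FC -0.81). *Cdk1* was not called, at a log2FC of -0.27. Separase and securin, which release sister chromatids, were lower, with log2FCs of -1.04 for *Sse* and -0.82 for *pim*, and *shtd*, an anaphase-promoting complex subunit gene, had -0.52.

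**Figure D3:**
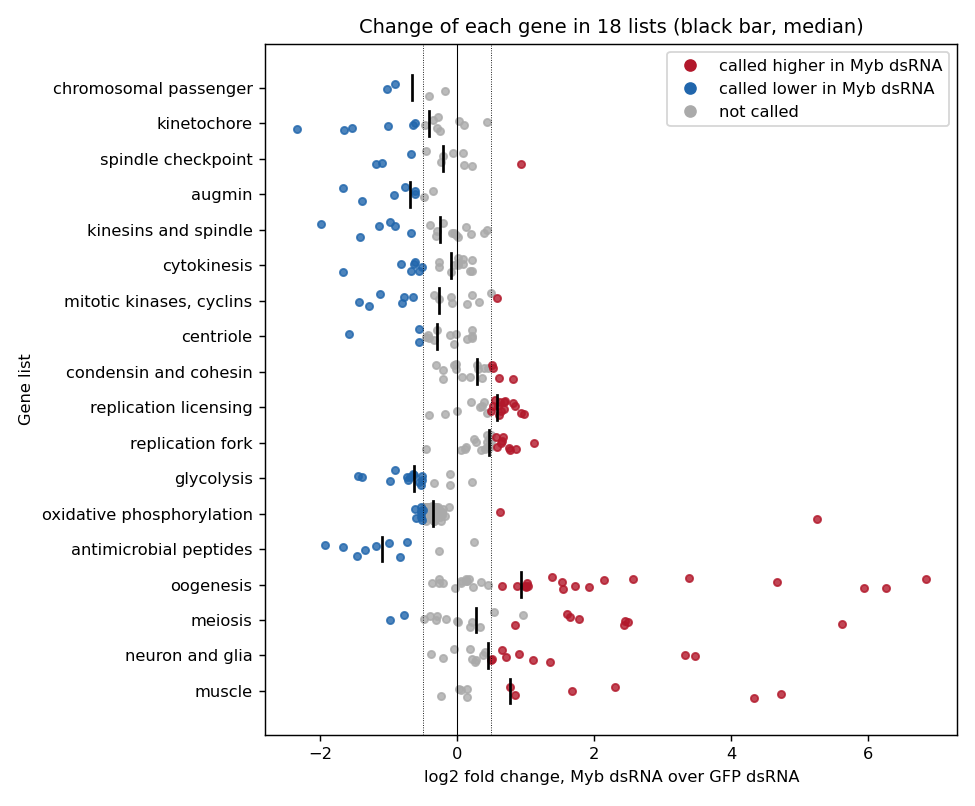
Log2FC of each tested gene, Myb dsRNA over GFP dsRNA, in 18 gene lists; points are genes, red called higher, blue called lower and grey not called, black bars are medians and dotted lines mark the threshold of 0.5. Augmin, glycolysis and antimicrobial peptide genes lie mostly to the left, with medians of -0.69, -0.63 and -1.09, and replication licensing and oogenesis genes mostly to the right, with medians of 0.58 and 0.94.

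Genes of DNA replication rose as a group. Of 47 replication genes tested in 2 lists, 23 rose and 0 fell, and 44 had a log2FC above 0, with a median of 0.49. The 48.9% that rose stands beside 14.9% of all genes tested. Among licensing and helicase genes it was 14 of 22. *dup*, the Cdt1 gene that loads the helicase, had 161, 159 and 148 CPM in Myb dsRNA iECs and 81.3, 78.5 and 77.7 CPM in control cells (log2FC 0.98, standard error 0.0474, adjusted p = 8.6e-10). All 6 genes of the Mcm2-7 helicase rose by a like amount, with log2FCs of 0.61 for *Mcm2*, 0.62 for *Mcm6*, 0.64 for *Mcm3*, 0.70 for *dpa* (the Mcm4 gene), 0.81 for *Mcm7* and 0.84 for *Mcm5*. *RecQ4*, a helicase gene of origin firing, had 0.93.

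At the fork and in nucleotide supply 9 of 25 genes rose and 0 fell. *dnk*, the deoxynucleoside kinase gene, had 402, 392 and 370 CPM in Myb dsRNA iECs and 183, 182 and 170 CPM in control cells (log2FC 1.12, adjusted p = 5.3e-10). *RnrS*, the small subunit gene of ribonucleotide reductase, averaged 450 ± 9.58 CPM in Myb dsRNA iECs and 249 ± 5.95 CPM in control cells (SD, n = 3 each). *PCNA*, the sliding clamp gene, averaged 575 ± 14.5 CPM in Myb dsRNA iECs and 336 ± 11.6 CPM in control cells (SD, n = 3 each; log2FC 0.77). *DNApol-alpha50*, a primase subunit gene, had a log2FC of 0.76. The fork genes showed no overlap between groups in those 4 cases.

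Of 15 E2F and G1-S regulators tested, 3 rose (20% beside 14.9% of all genes), 1 fell, which was *E2f2*, and 11 were not called. *CycE*, the cyclin gene that drives S-phase entry, had 110, 105 and 101 CPM in Myb dsRNA iECs and 55.6, 47.8 and 52.0 CPM in control cells (log2FC 1.02, standard error 0.059). *dap*, which encodes the inhibitor of CycE/Cdk2, had 108, 113 and 97.7 CPM in Myb dsRNA iECs and 57.8, 52.8 and 52.8 CPM in control cells (log2FC 0.96), and *Cdk2* had a log2FC of 0.68. *E2f1*, the activating E2F gene, was at 266, 283 and 280 CPM in Myb dsRNA iECs and at 319, 258 and 295 CPM in control cells, and these libraries overlapped (log2FC -0.07, adjusted p = 0.34). Of 111 genes that an earlier study found to depend on E2F1, 31 rose and 14 fell, with a median of 0.32. These are 27.9% and 12.6%, beside 14.9% and 6.78% of all genes. The falls among the 111 genes were led by *Nnf1a*, *msd5*, *pav* and *Kmn1*, all genes of mitosis. Of 23 genes of histone supply and chromatin assembly 3 rose, or 13% beside 14.9% of all genes, which encode CAF-1 subunits and a histone chaperone: *Caf1-180* (log2FC 1.10), *Caf1-105* (0.57) and *asf1* (0.53). Of the condensin and cohesin genes 4 of 17 (23.5%) rose, *Cap-D3* (0.81), *wapl* (0.61), *eco* (0.52) and *SA* (0.51), and 0 fell. When a trend of the libraries with gene length was removed, 1 of these 4 calls was left.

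The largest rises belonged in part to genes of the female germ line that control cells hardly expressed. *swa* encodes a protein that anchors *bcd* mRNA in the egg, and lies on X, 6363418 to 6365708. It was at 40.7, 42.1 and 41 CPM in Myb dsRNA iECs and at 0.675, 0.462 and 0.429 CPM in control cells, a log2FC of 6.26 or 76.8-fold (standard error 0.0997, adjusted p = 4.2e-15). *yl*, the receptor gene through which oocytes take up yolk, had 4.14, 4.57 and 4.73 CPM in Myb dsRNA iECs and 0.0675, 0.0577 and 0.0858 CPM in control cells (log2FC 5.93). *fs(1)N*, a gene of the egg covering and of terminal patterning, had 10.3, 10.1 and 10 CPM in Myb dsRNA iECs and 0.292, 0.404 and 0.515 CPM in control cells (log2FC 4.67, adjusted p = 7e-12). The 3 genes were near silent in every control library and the groups were more than 10-fold apart.

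Others of the egg list followed at lower levels. *bcd*, the anterior determinant of the embryo, had 44 counts over the 3 Myb dsRNA libraries and 0 over the 3 control libraries, which is at least 14.4-fold higher when the control is set to a floor of 3 counts over the group. *gnu*, which encodes an activator of the PNG kinase at egg activation, had 4.46, 3.69 and 3.39 CPM in Myb dsRNA iECs and 0.270, 0.346 and 0.515 CPM in control cells (log2FC 3.38). The posterior genes *nos* and *osk* had log2FCs of 1.72 and 0.99. *gnu*, *nos* and *osk* were chosen after their values were seen. In all, 18 of 32 tested oogenesis genes rose and 0 fell, with a median of 0.94, and 15 of the 47 listed were not tested. The 56.2% that rose stands beside 14.9% of all genes tested and 37.5% of those under 10 CPM. Some that rose, such as *bcd* and *yl*, were under the filter's 0.257 CPM in every control library. They passed the filter through a knockdown group, which raises the share. With a stricter filter of 50 counts, 9 rose. The list was not switched on as a whole, since the chorion genes *Cp16*, *Cp36* and *Cp38* and the vitelline membrane gene *Vm34Ca* had no count in any of the 6 libraries.

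Meiotic genes gave 8 rises and 2 falls among 22 tested, or 36.4% and 9.09% beside 14.9% and 6.78% of all genes. Of tested genes under 10 CPM, where most rises lay, 37.5% were called higher. *hdm*, a gene of meiotic crossing over, had 23.6, 25.2 and 22.3 CPM in Myb dsRNA iECs and 0.472, 0.606 and 0.372 CPM in control cells (log2FC 5.61, standard error 0.136, adjusted p = 5.3e-13). *cona*, a synaptonemal complex gene, had 2.58, 2.68 and 3.10 CPM in Myb dsRNA iECs and 0.540, 0.491 and 0.486 CPM in control cells. Listed with it, *CG31053* and *CG12200* had log2FCs of 2.49 and 2.43. In the germline RNA list 4 of 30 rose, or 13.3%, which is near the 14.9% of all genes. They were *bru1*, a translational repressor gene of oocytes (log2FC 2.57), *vas*, the Vasa helicase gene (1.01), *tej* (0.97) and *cuff* (0.91). A further 4 fell, led by *squ* (-1.36), which overlaps *grp* on the same strand. *BigH1*, the gene of the linker histone of early embryos, had 7.61, 6.79 and 6.96 CPM in Myb dsRNA iECs and 0.810, 0.837 and 0.944 CPM in control cells (log2FC 3.05), and was chosen after its values were seen. Of 13 testis genes tested, 5 rose and 2 fell, or 38.5% and 15.4%. *Rbp4* (log2FC 1.53), *vis* (1.38), *tomb* (1.23) and *fzo* (0.97) led the rises, and 8 of the 32 listed had no count in the 6 libraries. *tHMG2*, a gene of an HMG box protein that was chosen after its values were seen, had 186 counts over the 3 Myb dsRNA libraries and 0 over the 3 control libraries, which is at least 61-fold higher by the same floor.

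Among called genes that averaged 50 counts or more over the 6 libraries, most of the 15 largest rises were genes with no name beyond their annotation number. *CG14516* (FBgn0039640, 3R, 29138662 to 29145787), a predicted aminopeptidase gene, reached the highest level of them. It had 134, 137 and 130 CPM in Myb dsRNA iECs and 1.44, 1.53 and 1.17 CPM in control cells (log2FC 6.59, or 96.3-fold, standard error 0.0859, adjusted p = 7.6e-16), and it overlaps *CG14511* on the opposite strand. *CG1571* had the largest log2FC of the 15, 7.67, with 9.65, 9.20 and 9.97 CPM in Myb dsRNA iECs and 0.0450, 0.0289 and 0.0572 CPM in control cells. *CG13949* had 6.74, *CG17625* 6.25, *CG31100* 5.82, *CG4318* 5.02, *CG6405* 4.54, *CG43191* 4.21, *CG6927* 4.09 and *CG3253* 4.02. The 15 were picked among genes for which every Myb dsRNA library was above every GFP dsRNA library, so that separation is part of the rule.

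**Figure D4:**
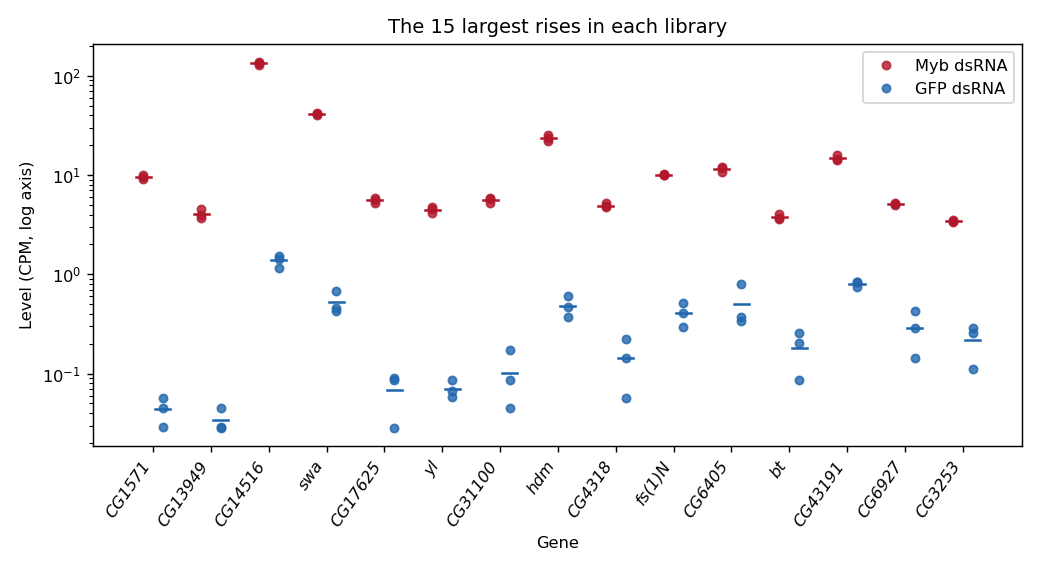
Level in each library of the 15 genes with the largest rises among called genes that averaged 50 counts or more, in CPM on a log axis, with Myb dsRNA (red) left of GFP dsRNA (blue); points are libraries and bars are means of 3. In Myb dsRNA iECs *CG14516* reaches 130 to 137 CPM and *swa* 40.7 to 42.1 CPM, while control libraries lie under 2 CPM for all 15 genes.

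Some rare second copies of housekeeping genes rose while the main copies did not, and others did not rise. The genes named in this paragraph were chosen after their values were seen, unless they led the rises of a list. Of 88 cytosolic ribosomal protein genes 3 rose, 0 fell, and the median was -0.21. The 3 were *RpS5b*, *RpL22-like* and *RpL37b*. *RpS5b* had 5.40, 4.5 and 4.97 CPM in Myb dsRNA iECs and 0.427, 1.04 and 0.372 CPM in control cells (log2FC 3.05, adjusted p = 7.8e-08). Its paralog *RpS5a* had 2685, 2603 and 2830 CPM in Myb dsRNA iECs and 2915, 3745 and 3293 CPM in control cells and was not called (log2FC -0.29). *RpL22-like* had 2.01, 1.86 and 2.07 CPM in Myb dsRNA iECs and 0.630, 0.606 and 0.830 CPM in control cells. *RpL37b* had a log2FC of 1.02, and *RpL37a* -0.25. The call of *RpL37b* was lost in 5 of the alternative fits. Other second copies were not called, with log2FCs of 0.09 for *RpS10a*, -0.04 for *RpS14b*, -0.30 for *RpS19b* and -0.42 for *RpS15Ab*.

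Among 59 genes of oxidative phosphorylation the 2 that rose were *ATPsyndelta* (log2FC 0.62) and *ND-B8*. *ND-B8* had 130 counts over the 3 Myb dsRNA libraries and 3 over the 3 control libraries, a ratio of 42.6 (95% counting interval 14.3 to 209). Among 20 vacuolar ATPase genes *VhaM9.7-a* had 2.03, 2.06 and 1.99 CPM in Myb dsRNA iECs and 0.0450, 0.0289 and 0.0572 CPM in control cells (log2FC 5.43), while *VhaM9.7-b* had 146, 142 and 152 CPM in Myb dsRNA iECs and 177, 201 and 179 CPM in control cells (log2FC -0.34). *Vha68-1* had 51.3, 51.3 and 52.9 CPM in Myb dsRNA iECs and 19.9, 19.4 and 21.1 CPM in control cells (log2FC 1.36). Its paralog *Vha68-2* had a log2FC of -0.21. *VhaM9.7-c* (-0.20) and the proteasome copy *Rpt6R* (0.12) were not called. *Rpt3R*, a second copy of the proteasome gene *Rpt3*, fell to 15.9 ± 0.851 CPM in Myb dsRNA iECs, against 33.8 ± 1.36 CPM in control cells (SD, n = 3 each; log2FC -1.09). It was the 1 gene of 34 proteasome genes called.

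Low genes of the small chromosome 4 rose more often than low genes elsewhere. This chromosome is largely heterochromatin in the fly, with its genes embedded in repeats. Of its 92 tested genes 31 rose and 0 fell, which is 33.7% higher beside 11.9% to 19% on X and the arms of chromosomes 2 and 3. All 31 had a mean under 10 CPM over the 6 libraries. They were 31 of 41 such genes, or 75.6%, beside 29.5% on 3R, 30.6% on 3L, 39.5% on X, 39.7% on 2R and 47.0% on 2L. Their median log2FC was 1.09 for the 41 genes. The 51 genes of chromosome 4 at 10 CPM or more held 0 calls, lay between -0.49 and 0.49, and had a median of -0.08. These shares describe where the calls lie and carry no test, and genes that lie side by side are not independent. Without any filter on counts, 33 of 107 genes of chromosome 4 were called higher (30.8%), beside 8.9% to 14.6% on the other arms. With a minimum count of 50 it was 27.8% beside 8.2% to 11.9%.

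The genes of chromosome 4 that are named here were chosen after their values were seen, apart from *bt*, *Cadps* and *apolpp*. *bt*, which encodes the titin-like muscle protein projectin, had 3.64, 3.66 and 4.01 CPM in Myb dsRNA iECs and 0.202, 0.0866 and 0.257 CPM in control cells (log2FC 4.33, adjusted p = 1e-09). *onecut*, a homeobox gene of neurons, had 1.94, 1.80 and 1.87 CPM in Myb dsRNA iECs and 0.157, 0.202 and 0.114 CPM in control cells (log2FC 3.54). *mGluR*, the metabotropic glutamate receptor gene, had 2.08, 2.22 and 2.19 CPM in Myb dsRNA iECs and 0.247, 0.144 and 0.172 CPM in control cells (log2FC 3.46). Several of the 31 are developmental regulators of the eye, the nervous system and the wing. *NfI* had a log2FC of 3.43, the Pax6 gene *toy* 2.69, *Sox102F* 2.6, the Hedgehog pathway factor gene *ci* 1.59 and the other Pax6 gene, *ey*, 0.89. *Cadps*, which encodes a vesicle release factor, and *apolpp*, the lipophorin precursor gene, had 1.36 and 1.09. Well expressed genes beside them did not move by as much, with log2FCs of 0.06 for *pho*, a Polycomb recruiter gene, and -0.42 for *ATPsynbeta*, which was not called. The 31 included 24 protein-coding genes and 7 noncoding RNAs. Their mean levels in Myb dsRNA iECs were 0.252 to 12.5 CPM, and for all 31 the libraries of the groups did not overlap. The same held for 1343 of all 1379 genes called higher.

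**Figure D5:**
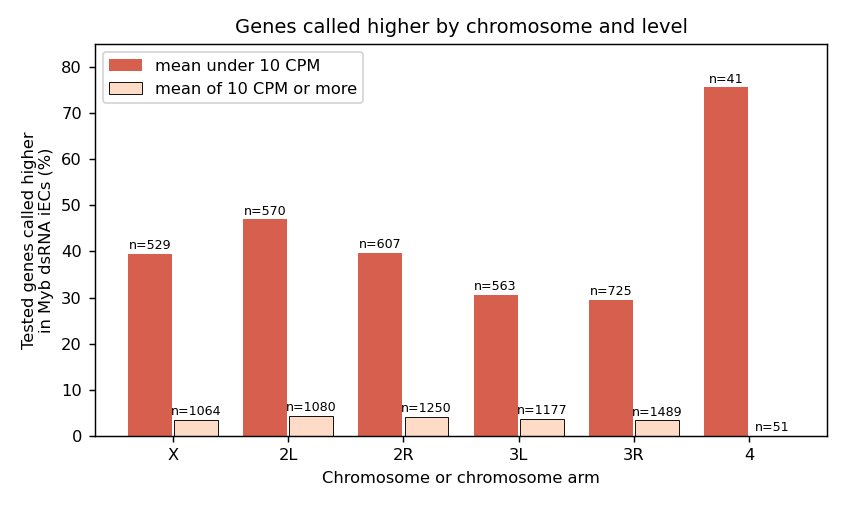
Share of tested genes called higher in Myb dsRNA iECs, in percent, by chromosome or arm; dark bars are genes with a mean under 10 CPM over the 6 libraries, pale bars genes at 10 CPM or more, and the number above each bar is the genes tested. On chromosome 4 the share is 75.6% of 41 low genes and 0.0% of 51 higher ones.

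Calls also lay next to each other along the chromosomes. Of the genes called higher 41.5% had a neighbour in the order of tested genes that was also higher, while 26.9% of all tested genes had such a neighbour. For genes called lower the figures were 22.8% and 12.8%. Runs of at least 4 neighbouring calls numbered 21 higher and 5 lower. On 2R, 7028911 to 7042762, the tetraspanin genes *Tsp42Eg* and *Tsp42Ei* lay in such a run. *Tsp42Eg* had 0.549, 0.816 and 0.624 CPM in Myb dsRNA iECs and 0.0675, 0.0289 and 0.00 CPM in control cells. *Tsp42Ei* had 72 counts over the Myb dsRNA libraries and 3 over the control libraries, a ratio of 23.6 (95% counting interval 7.76 to 117). The signalling genes *Wnt4* and *Wnt6* on 2L, with log2FCs of 3.44 and 3.09, ended a run of 4. Among the runs that fell was a row of 4 glutathione transferase genes on 2R, 18406011 to 18409835. These were *GstE6*, *GstE7*, *GstE8* and *GstE9*, with log2FCs of -0.66, -0.96, -1.35 and -1.72 in the order of their position. *GstE9* had 15.6, 17.6 and 20.8 CPM in Myb dsRNA iECs and 46.1, 68.8 and 64.2 CPM in control cells. All the genes of this paragraph were chosen after their values were seen.

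Markers of other cell types were read in the same libraries. Neuron and glia markers gave 9 rises and 0 falls among 18 tested, with a median of 0.46 and 9 of the 27 listed not tested. The rises are 50%, beside 14.9% of all genes tested and 37.5% of those under 10 CPM. The other 9 tested were not called, among them *elav* (log2FC 0.19), *brp* (0.28) and *Appl* (-0.38). *nrv3*, a neuronal sodium pump subunit gene, had 1.23, 1.04 and 1.30 CPM in Myb dsRNA iECs and 0.0450, 0.115 and 0.172 CPM in control cells (log2FC 3.47). *ChAT*, the gene of the enzyme that makes acetylcholine, had 1.76, 1.5 and 1.78 CPM in Myb dsRNA iECs and 0.202, 0.144 and 0.143 CPM in control cells (log2FC 3.32). *Cadps* and the calcium channel gene *cac* (log2FC 1.11) followed. With the length trend removed, the list held 5 rises and 2 falls. Of 11 muscle markers 6 rose, or 54.5% beside the same shares of 14.9% and 37.5%. The other 5 were not called: *Mef2* (log2FC 0.03), *Tm1* (0.06), *Msp300* (0.14), *Act87E* (0.15) and *Mlc2* (-0.24). Those that rose included *bt*, *wupA* (2.31), *Mhc* (1.67) and *up*, with 37 counts over the Myb dsRNA libraries and 1 over the control libraries. The ratio for *up* was 36.4 (95% counting interval 6.14 to 1480), so its size is not well fixed. *crb*, an apical polarity gene of epithelia, was the largest rise of a well expressed marker, with 99.7, 103 and 97.9 CPM in Myb dsRNA iECs and 31.2, 23.9 and 29.4 CPM in control cells (log2FC 1.83, adjusted p = 1.7e-10). It was joined by *Fas3* (0.90) among 17 epithelial markers, of which 11.8% rose, beside 14.9% of all genes. Of 5 fat body and gut genes tested, *Fbp2* (2.21) and *apolpp* rose, and 7 of the 22 listed, such as *Lsp1alpha* and the trypsin genes, had no count in the 6 libraries. Summed over all listed genes, the neuron and glia markers were at 1112 to 1196 CPM in Myb dsRNA iECs and 1039 to 1193 CPM in control cells. The muscle markers were at 1423 to 1506 CPM in Myb dsRNA iECs and 1049 to 1363 CPM in control cells, and the epithelial markers at 2362 to 2424 CPM in Myb dsRNA iECs and 1843 to 2197 CPM in control cells. Within the muscle sum *Zasp52*, which rose (log2FC 0.85), averaged 404 CPM in Myb dsRNA iECs and 224 CPM in control cells. The uncalled *Tm1* averaged 629 CPM in Myb dsRNA iECs and 605 CPM in control cells. The fat body and gut markers were at 27.8 to 29.5 CPM in Myb dsRNA iECs and 27 to 40.1 CPM in control cells. The part of these markers in any other result was not tested.

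Blood cell genes were read as the markers of the line itself. *srp*, the GATA factor gene of blood cells, had 198, 206 and 195 CPM in Myb dsRNA iECs and 219, 192 and 206 CPM in control cells (log2FC -0.04, adjusted p = 0.46). Of 23 blood cell genes tested, 10 rose and 2 fell, with a median of 0.31. These are 43.5% and 8.7%, beside 14.9% and 6.78% of all genes. The rises were led by *NimB2* (log2FC 2.27), the scavenger receptor gene *Sr-CII* (1.81), the integrin gene *ItgaPS4* (1.25) and *vkg* (0.92). The falls were the prophenoloxidase genes *PPO3* (-0.66) and *PPO2* (-0.61), and the phagocyte genes *NimC1* (-0.78), *Hml* (-0.52) and *eater* (-0.45) were not called. Without GFP dsRNA replicate 2, or with the length trend removed and the level kept, the list held 7 rises and 5 falls. The matrix list gave 6 rises and 3 falls among 17 genes, or 35.3% and 17.6%. It gave 5 and 6 with the length trend removed and 5 and 5 without GFP dsRNA replicate 2. *vkg*, a type IV collagen gene, had 90.7, 98.0 and 82.2 CPM in Myb dsRNA iECs and 49.9, 42.9 and 50.5 CPM in control cells, the nidogen gene *Ndg* had a log2FC of 2.41 and the laminin gene *wb* 1.64. *Glt*, a glutactin gene, fell to 77.1 ± 4.09 CPM in Myb dsRNA iECs, against 194 ± 21 CPM in control cells (SD, n = 3 each; log2FC -1.33).

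Sugar metabolism fell as a group. Of 17 glycolysis genes tested, 13 were called lower and 0 higher, or 76.5% beside 6.78% of all genes, and the median was -0.63. *Tret1-1*, a trehalose transporter gene, had 47.2, 56.4 and 67.2 CPM in Myb dsRNA iECs and 137, 161 and 166 CPM in control cells (log2FC -1.44, standard error 0.113, adjusted p = 1.2e-07). *Ldh*, the lactate dehydrogenase gene, had 362, 452 and 564 CPM in Myb dsRNA iECs and 1015, 1301 and 1288 CPM in control cells, with means of 459 ± 101 and 1201 ± 161 CPM (SD, n = 3 each) and a log2FC of -1.39 (standard error 0.184). The groups did not overlap, but the spread within each was wider than for the mitotic genes. *Pglym78*, the phosphoglycerate mutase gene, had 200, 203 and 226 CPM in Myb dsRNA iECs and 382, 451 and 406 CPM in control cells, and *Tpi* had 142, 143 and 179 CPM in Myb dsRNA iECs and 262, 317 and 288 CPM in control cells.

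Mitochondrial lists leaned the same way by less. Of 22 citrate cycle genes 4 fell, *SdhA* (log2FC -0.56), *SdhC* (-0.52), *ScsbetaG* (-0.52) and *Mdh1* (-0.51), and 20 had a log2FC below 0. Of the 59 oxidative phosphorylation genes 8 fell, led by *Cyt-c-p*, the cytochrome c gene (-0.61), and *cype* (-0.60), and 57 had a log2FC below 0, with a median of -0.35. The deviation of the control libraries from their mean followed gene length across genes, with Spearman correlations of 0.442, -0.521 and 0.248. The oxidative phosphorylation genes are short, with a median exon length of 871 bases, while the citrate cycle genes, at 2127.5 bases, are close to the glycolysis genes, at 2460 bases. With the trend with gene length removed, oxidative phosphorylation held 0 falls and the citrate cycle 1, whereas glycolysis held 13 falls when that removal kept the level fixed and 12 when it did not. Of 71 mitochondrial ribosomal protein genes 7 fell, among them *mRpL27* (-0.72), *mRpL36* (-0.65), *mRpS34* (-0.65) and *mRpS14* (-0.64). The 2 ways of removing the length trend left 4 or 1 of these falls. Their share of 9.86% is near the 6.78% of all genes called lower, although 68 of the 71 had a log2FC below 0. The share that fell was 18.2% of citrate cycle and 13.6% of oxidative phosphorylation genes.

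Antimicrobial peptide genes fell as a group. Of 10 antimicrobial peptide genes tested, 8 fell and 0 rose, or 80% lower beside 6.78% of all genes, with a median of -1.09. *Mtk* had 0.617, 0.555 and 0.336 CPM in Myb dsRNA iECs and 1.62, 1.73 and 1.46 CPM in control cells (log2FC -1.67, adjusted p = 3.6e-05), and *CecA2* (-1.93), *DptB* (-1.46) and *Dro* (-1.35) fell with it. These are genes that cells induce on infection, and the 8 had mean levels of at most 5.37 CPM in control cells. *PGRP-SD*, the gene of a peptidoglycan sensor, had 9.44, 8.88 and 9.85 CPM in Myb dsRNA iECs and 24.1, 27.8 and 25.3 CPM in control cells (log2FC -1.45). *PGRP-SA* (-0.79) and *Tep2* (-0.72) fell with it, in a list of 16 scavenger, thioester and PGRP genes with 5 falls, 3 rises and a median of 0.14. The calls in that list are 31.2% lower and 18.8% higher, beside 6.78% and 14.9% of all genes. Of 61 cytochrome P450 and glutathione transferase genes, 15 fell and 11 rose (24.6% and 18% beside 6.78% and 14.9% of all genes), with a median of -0.14. The rises were led by *GstE1* (3.11), *Cyp309a1* (2.89), *Cyp4s3* (2.89) and *Cyp4d1* (1.85), all at under 3 CPM.

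The stress and signalling lists are short and held few calls each, but not all of their shares were low. Of all genes, 14.9% were called higher and 6.78% lower. The shares called higher were 20% for ecdysone, 15.4% for Hippo and 14.3% for apoptosis genes. Of the heat shock and unfolded protein genes, 13.6% were lower and 4.55% higher. The JNK, JAK-STAT, growth and DNA damage lists were below the share of all genes in both directions. Of 14 JNK pathway genes tested with edgeR's quasi-likelihood test, 0 were called. Among 24 genes of DNA damage and repair 1 rose, *tos* (log2FC 0.69), the Exo1 nuclease gene, and 1 fell, *spn-D* (-0.56). Among 14 apoptosis genes *hid*, an inducer of cell death, rose to 10.6, 11.1 and 11.2 CPM in Myb dsRNA iECs, against 5.44, 4.62 and 5.35 CPM in control cells (log2FC 1.09), and *grnd*, a TNF receptor gene, had a log2FC of 1.10. In the Hippo list of 13 genes the calls were *ds* (2.63) and *fj* (2.01), which encode a giant cadherin and the kinase that modifies it. Of 10 JAK-STAT genes *et*, a gene of a short receptor, was called (1.64). Of 15 ecdysone genes 3 rose, the transporter gene *E23* (2.88), the nuclear receptor gene *Eip78C* (1.59) and *ImpE3* (0.67). *Ilp6*, an insulin-like peptide gene, was the 1 gene of 18 growth genes called (-0.53). Of 22 heat shock and unfolded protein genes 3 fell, *Hsp68* (-0.91), *Gp93* (-0.68) and *Herp* (-0.58), and *Hsp67Ba* rose (1.04). *NetA*, the gene of a netrin that guides axons, had 17.3, 18.1 and 14.6 CPM in Myb dsRNA iECs and 4.48, 4.5 and 4.69 CPM in control cells (log2FC 1.87). *tim*, a circadian clock gene chosen after its values were seen, had 3.89, 3.79 and 4.08 CPM in Myb dsRNA iECs and 0.427, 0.519 and 0.544 CPM in control cells.

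Among the largest falls some genes had no link to the cell cycle that is stated here. *asRNA:CR45912*, a noncoding RNA of 3L that overlaps *CG6865* and the microRNA gene *mir-315*, among others, on the opposite strand, had 2.06, 1.99 and 2.38 CPM in Myb dsRNA iECs and 13.2, 13.9 and 13.6 CPM in control cells (log2FC -2.65). *pon*, the gene of an adaptor in asymmetric cell division, had 15.7, 17 and 15.5 CPM in Myb dsRNA iECs and 66.8, 61.7 and 64.3 CPM in control cells (log2FC -2.0). *trpl*, the gene of a light-response cation channel, had 0.869, 0.359 and 0.504 CPM in Myb dsRNA iECs and 2.52, 2.19 and 2.49 CPM in control cells. *CG14223*, *CG14079*, *CG30046*, *CG34437*, *CG3630*, *CG5955*, *CG34330*, *CG3348* and *CG4259* had log2FCs of -2.06 to -1.77. Groups that did not overlap were part of the rule by which the largest falls were picked.

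To set the 2 knockdowns side by side, Myb dsRNA iECs were set directly against CycA dsRNA iECs in the same fit, with no control library in the contrast. Myb dsRNA iECs had higher levels of 1339 genes and lower levels of 1426, or 14.5% and 15.4% of those tested. Of the 1379 genes called higher against GFP dsRNA, 542 (39.3%) were also higher than in CycA dsRNA iECs and 261 were lower. Of the 626 called lower against GFP dsRNA, 236 (37.7%) were also lower than in CycA dsRNA iECs and 54 were higher. Some germline genes were among the largest differences. *swa* averaged 41.3 CPM in Myb dsRNA iECs and 0.393 CPM in CycA dsRNA iECs (log2FC 6.72, adjusted p = 5.8e-15), *hdm* 23.7 and 0.618 CPM (5.22), and *yl* 4.48 and 0.0893 CPM (5.52). The predicted aminopeptidase gene *CG14516* averaged 134 CPM in Myb dsRNA iECs and 4.11 CPM in CycA dsRNA iECs (5.04). On chromosome 4, Myb dsRNA iECs exceeded CycA dsRNA iECs for 22 of the 41 low genes and fell below them for 3. Among low genes elsewhere, 106 were higher and 136 lower of 529 on X, and 141 and 143 of 570 on 2L. It was 133 and 149 of 607 on 2R, 70 and 168 of 563 on 3L, and 107 and 234 of 725 on 3R. CycA dsRNA iECs themselves were higher than GFP dsRNA control cells for 22 of the 41 low genes. The median log2FC of the 41 in that contrast was 0.65, beside 0.44 to 0.66 on X and the other arms. *bt* averaged 3.77 CPM in Myb dsRNA iECs and 0.642 CPM in CycA dsRNA iECs (log2FC 2.53).

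Many mitotic genes had more mRNA in Myb dsRNA iECs than in CycA dsRNA iECs. Of the 120 mitotic genes of the 9 joined lists, 63 were higher and 4 lower, with a median log2FC of 0.54. *aurB* averaged 32.0 CPM in Myb dsRNA iECs and 14.7 CPM in CycA dsRNA iECs (log2FC 1.12, adjusted p = 9.1e-11), *polo* 98.9 and 51.7 CPM (0.93) and *pav* 40.7 and 24.4 CPM (0.74). *Nnf1a* (log2FC -0.50) and *pon* (-1.10) were lower in Myb dsRNA iECs. Replication genes gave 40 higher and 0 lower among 47, with a median of 0.78, and *dup* averaged 156 CPM in Myb dsRNA iECs and 56.7 CPM in CycA dsRNA iECs. Of the complex, 8 of 10 genes were higher and *Myb* was lower (log2FC -3.60). All 10 antimicrobial peptide genes were lower in Myb dsRNA iECs, with a median of -2.53, and 6 of 17 glycolysis genes were lower with 0 higher. Of 32 oogenesis genes, 13 were higher in Myb dsRNA iECs and 2 lower. Of 23 blood cell genes 2 were higher and 14 lower. Of 18 neuron and glia markers it was 3 and 5, and of 11 muscle markers 1 and 2. Whether the depth of the endoreplication state was the same in both kinds of iECs was not tested.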

How the data were processed

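RNA-Seq libraries of S2 cells (TruSeq Stranded mRNA, polyA-selected, single-end) were made from cells treated with Myb, GFP or CycA dsRNA, 3 replicates each, which the paper gives as biological replicates. Groups came from the sample titles. The authors checked reads with FastQC 0.11.5, mapped them with STAR 2.6.1a to Release 6 and counted them over exons with featureCounts. The deposited table holds raw counts, which the authors did not normalize; the strand setting of counting is not given in the sources used here. The authors' tables of fold changes and p-values were not used.

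All 9 libraries entered 1 edgeR 4.0.16 model (R 4.3.3; TMM factors, a filter by expression at a minimum count of 10, the quasi-likelihood test) of 3 groups. Calls needed a change of 0.5 or more on the log2 scale, up or down, and a Benjamini-Hochberg adjusted p under 0.05 across 9231 genes. The fit was tested on simulated data. Levels are CPM. Intervals and floors cover counting error only. Positions are from the BDGP6.54 annotation, which matched 17372 genes.

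The genes named were *Myb* and *CycA*, all members of the Myb-MuvB and chromosomal passenger lists, the 15 largest rises and 15 largest falls (called, averaging 50 counts or more, groups not overlapping), and up to 4 called members of each of 44 lists. Further members of these lists (such as *Mcm2*, *Mcm3*, *Mcm6*, *dpa*, *Spc25*, *Nuf2*, *Klp61F*, *Cdk1*, *E2f1*, *srp*, *twe*, *cuff*, *Zasp52*, the uncalled or lower blood cell genes, the uncalled neuron and muscle markers and the second copies that did not rise) were chosen after their values were seen. The comparison, the lists and this rule were chosen with earlier results of these data known.

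Alternatives changed the tool (DESeq2 1.42.0), scaling, filter, fold threshold, groups in the fit, a trend with gene length, the replicate block and each library in turn.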

Additional observations from a re-analysis of the deposited data

How the results depend on the processing

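The counts of genes called in Myb dsRNA iECs against GFP dsRNA control cells depended most on the threshold and the filter. Without a fold threshold 2646 genes were higher and 2683 lower, with edgeR's glmTreat, which tests against the threshold itself, 874 and 307, and with a minimum count of 50, 785 genes were higher. Without a fold threshold the comparison with CycA dsRNA iECs held 3219 rises and 2904 falls, and with glmTreat 856 rises. Leaving out each library in turn gave 1267 to 1440 genes higher and 568 to 690 lower against GFP dsRNA, and 1321 to 1431 higher and 1360 to 1467 lower against CycA dsRNA. With the replicate block 1378 genes were higher and 621 lower. Same-numbered Myb dsRNA and GFP dsRNA libraries did not deviate together (correlations of 0.012, -0.047 and 0.022). For same-numbered Myb dsRNA and CycA dsRNA libraries the correlations were 0.097, 0.002 and 0.059, beside -0.079 to 0.03 where the numbers differed. All of these correlations were small, and the replicate numbers are not taken as pairs. The replicate numbers are those of the sample titles. By the numbers in their read file names, the last Myb dsRNA and CycA dsRNA libraries are both 4 and the last GFP dsRNA library is 3. The block therefore joins libraries there whose file numbers differ. Of 189 named genes called, 160 were tested under all 20 alternatives, and 131 of these kept the call in each. The other 29 were not tested under at least 1 alternative, and 26 of them kept the call wherever they were tested. The difference of *srp*, which was not called, lay between -0.09 and 0.0 on leaving out each library, with 0.0 without GFP dsRNA replicate 1. Among the lists, glycolysis held 8 falls with glmTreat, licensing 9 rises with glmTreat, and with a minimum count of 50 meiosis held 5 rises, muscle 3 and neurons 5. Oxidative phosphorylation held 14 falls without GFP dsRNA replicate 1 and 2 without GFP dsRNA replicate 2. The causes were not tested. Genes under about 0.257 CPM are limited by depth.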
